A study of Drosophila melanogaster with 9 samples.

Results

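The genes described here encode the proteins of the cytosolic ribosome of Drosophila melanogaster. They were taken as every gene of the count table whose FlyBase symbol starts with RpL or RpS and a digit, together with RpLP0, RpLP1 and RpLP2, while the mitochondrial mRpL and mRpS genes were left out. The rule gave 91 of the 17562 genes in the table: 50 of the large subunit, 38 of the small subunit and 3 of the stalk. It leaves out sta and Rack1, whose proteins also sit on the small subunit.

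RNA was sequenced from S2R+ cells, an Oregon-R line of late embryonic origin, cultured in 3 media with 3 libraries each. The media called 10% FEx and 2.5% FEx here (in full, M3 plus FEx) are Shields and Sang M3 medium with an extract of homogenized adult flies at that share of the volume, and hold neither serum nor added bactopeptone and yeast extract. MB10, the control, is M3 with bactopeptone, yeast extract and 10% fetal calf serum. The question was how far replacing serum by fly extract altered these cells. Each medium held 1 line: a line adapted stepwise to 10% FEx, a line moved on from it to 2.5% FEx, and the control line in MB10. A change fixed in a line and an effect of its medium cannot be told apart, nor can the loss of serum and the gain of extract. The triplicates were collected from these lines, so that p-values measure only the spread between these samples.

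Ribosomal proteins assemble with ribosomal RNA in the nucleolus, and the finished subunits join on an mRNA to translate it. Their mRNAs are short, abundant and long-lived, and the genes are usually transcribed in parallel because the ribosome needs the proteins in equal numbers. In flies, TOR signalling and Myc link ribosome production to nutrients, and the loss of a copy of many of these genes gives the Minute phenotype of slow growth and thin bristles.

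Library totals ran from 20694827 to 29076620 counts. Counting error alone did not account for the spread within a medium: chi-square per degree of freedom was 9.75 to 66.1 between its libraries, with 43.3 to 66.1 in MB10. Counts were scaled by TMM to CPM, edgeR's measure of a gene's share of its library, so that fewer cells of a type and less RNA per cell cannot be told apart. Of 14 hemocyte markers found, 13 passed the expression filter, at a summed 1263 to 1376 CPM in 10% FEx, 1367 to 1433 CPM in 2.5% FEx and 1446 to 1628 CPM in MB10, led by ush, crq, srp and Pxn. Of the 13 tested, 4 were higher and 6 lower in 10% FEx against MB10 at an adjusted p under 0.05 by edgeR (30.8% and 46.2%). In 2.5% FEx against MB10, 3 were higher and 2 lower (23.1% and 15.4%). Over all genes tested, 25.5% were higher and 27.6% lower in 10% FEx, and 22% and 22.2% in 2.5% FEx. Pxn had 82.8 to 95.0 CPM in 10% FEx, 152 to 176 CPM in 2.5% FEx and 352 to 417 CPM in MB10. PPO1 had 7.39 to 8.57 CPM, 2.36 to 3.04 CPM and 0.0503 to 0.271 CPM in the same order. The phagocyte receptor gene NimC1 stayed at or under 0.145 CPM, and fz, the receptor gene that S2R+ cells express, was at 15.2 to 18.2, 23.8 to 27.7 and 8.57 to 9.81 CPM in the same order of media. Of 25 marker genes of adult fly tissue, whose RNA an extract could carry, 4 passed the filter, and the 25 summed to 62.3 to 67.4 CPM in 10% FEx, 77.2 to 94.9 CPM in 2.5% FEx and 87.7 to 93.6 CPM in MB10. TpnC4 alone gave 51.3 to 55.1, 70.2 to 87.2 and 79.8 to 85.0 CPM of this, while osk went the other way at 7.23 to 8.73, 3.74 to 4.98 and 4.54 to 5.03 CPM, and SP, Cp19, dj, Rh3, alphaTry, betaTry, Mst57Dc and Mst84Da had no count in any library.

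As a group, the ribosomal protein genes were lower in 2.5% FEx than in 10% FEx, while MB10 varied too much to be placed. Their share was 11.7%, 11.4% and 11.8% of the counts in 10% FEx, 9.85%, 10.2% and 8.87% in 2.5% FEx and 11.2%, 9.85% and 13.3% in MB10. The libraries in 10% FEx lay close together and above every library in 2.5% FEx, whereas those in MB10 spanned both. The mean share was 11.7% ± 0.199 in 10% FEx, 9.63% ± 0.682 in 2.5% FEx and 11.5% ± 1.76 in MB10 (SD, n = 3 each). No p-value is given for this sum over chosen genes.

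**Figure D1:**
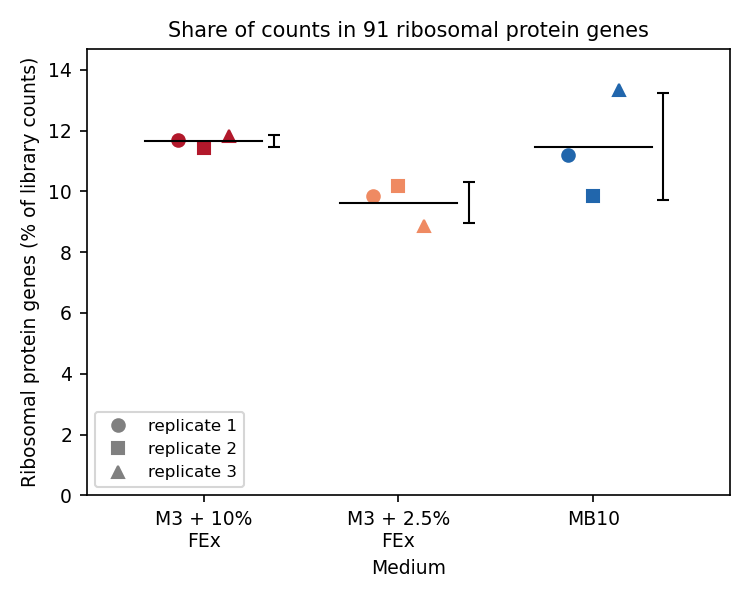
Share of each library's counts that fell on the 91 ribosomal protein genes (y axis, % of library counts) by medium. Points are libraries with the replicate number as the symbol, the line is the mean and the bar to its right the SD over 3 libraries. The 3 libraries in 10% FEx sit between 11.4 and 11.8%, those in 2.5% FEx between 8.87 and 10.2%, and those in MB10 between 9.85 and 13.3%.

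The MB10 libraries stood apart from each other in these genes, and this bears on every comparison with MB10. Relative to the mean of MB10, the 84 ribosomal protein genes tested had a median deviation of -0.03 on the log2 scale in replicate 1, -0.32 in replicate 2 and 0.38 in replicate 3, with 32, 2 and 76 genes above that mean. Expression in replicate 3 was above the mean of MB10 replicates 1 and 2 for 76 of the 84 genes, by a median of 0.56 and by more than 1.5-fold for 40 of them. RpL8, whose protein lies next to the peptidyl transferase centre, differed most, by 1.20, followed by RpL35A at 1.11 and RpL34b at 1.08. The 3 libraries in MB10 ranged over more than 1.5-fold for 54 of the 84 genes (64.3%), against 15.2% of the 8621 other genes tested. The same count was 0 of 84 in 10% FEx and 3 of 84 in 2.5% FEx.

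In 2.5% FEx the deviation ran the other way: replicate 3 lay below the mean of replicates 1 and 2 for 75 of the 84 genes, by a median of -0.25. Gene by gene the deviations mirrored each other, at a Pearson coefficient of -0.93 (Spearman -0.93) over 84 genes, given as a description because the genes share their libraries. Over the 8621 other genes the Pearson coefficient was -0.35. RpL8 and RpL35A, which were highest in MB10 replicate 3, were also the lowest in 2.5% FEx replicate 3, at -0.64 and -0.62. RpL38, RpS3A, RpL10, RpL5, RpL39, RpL15, RpL41 and RpL21 formed the opposite end, with deviations of MB10 replicate 3 from -0.47 to -0.04. RpS19b barely differed between MB10 libraries in this measure, at 0.01. Exon length did not order these deviations, with a Pearson coefficient of 0.05 over the 84 genes.

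**Figure D2:**
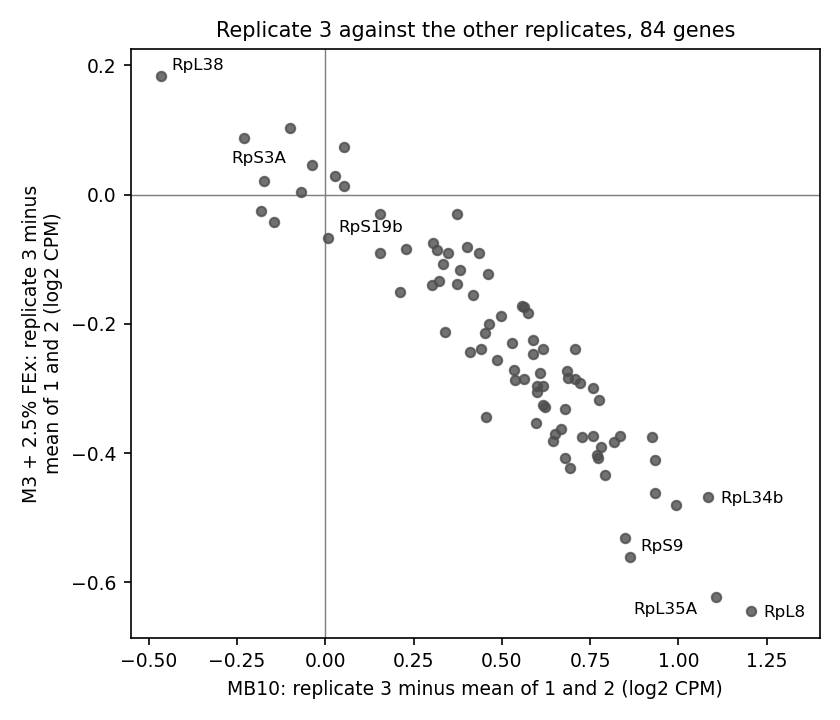
Deviation of replicate 3 from the mean of replicates 1 and 2 in MB10 (x axis) and in 2.5% FEx (y axis), both in log2 CPM, for the 84 ribosomal protein genes tested, 1 point each. Most points lie at the lower right, high in MB10 replicate 3 and low in 2.5% FEx replicate 3, with RpL8 at 1.20 and -0.64 and RpL38 at -0.47 and 0.18.

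Of the other gene lists, only sta and Rack1 had a larger median deviation of MB10 replicate 3 from replicates 1 and 2, at 0.80. The median was 0.37 over 14 proteasome core genes and 0.37 over 73 mitochondrial ribosomal protein genes, 0.10 over 36 translation factors, 0.00 over 31 ribosome assembly genes and -0.14 over 17 TOR and insulin pathway genes. Over all 8705 genes tested it was 0.00. The share of counts from the mitochondrial genome, a mark of library make-up, was 8.20% in MB10 replicate 3, against 12.4% and 8.57% in MB10 replicates 1 and 2, and its part in the deviation was not tested. The median biological coefficient of variation fitted by edgeR was 0.134 for the ribosomal protein genes and 0.0712 for the 2042 other genes of mean expression above 100 CPM.

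Expression levels differed widely among the members. CPM divided by the exon length in kilobases, which allows levels of different genes to be compared, had a median of 1120 CPM per kb in 10% FEx, 877 in 2.5% FEx and 1123 in MB10. RpL41, whose product is among the smallest proteins known, was highest in every medium, at 7451, 8151 and 11916 CPM per kb. RpL39, RpL21, RpL10 and RpS27A followed in each medium. RpS19b, RpL7-like, RpL24-like, RpL26 and RpS15Ab made up the lower end in all 3 media, with RpS19b at 50.6 CPM per kb in 10% FEx and 62.5 in 2.5% FEx.

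Of the 91 genes, 7 were too low to be tested, and each is a duplicate of a gene that was expressed. RpL10Aa and RpS28a had no count in any library, which allows at most 0.103 to 0.145 CPM per library (3 counts, counting error only). RpS28-like had 0 to 1 counts per library, RpL37-2 had 1 to 3, RpS5b 2 to 6, and RpL22-like and RpS10a 0 to 7. RpS5b, RpS10a and RpL22-like are best known from the fly germline. The other 84 genes comprised 47 of the large subunit, 34 of the small subunit and all 3 of the stalk.

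RpS19b was the member with the largest change. It encodes a variant of RpS19 that is enriched in the germline of the fly and lies on chromosome 3R, 23932729 to 23933530 (BDGP6.54). Its exons were covered by 996, 683 and 729 counts in 10% FEx, 937, 1093 and 970 counts in 2.5% FEx and 2415, 2173 and 2379 counts in MB10, which is 35.3, 30.8 and 35.1 CPM in 10% FEx, 39.6, 44.9 and 40.2 CPM in 2.5% FEx and 121, 93.9 and 107 CPM in MB10. Every library in an FEx medium lay below every library in MB10. The log2 fold change was -1.67 ± 0.099 in 10% FEx (± SE; edgeR's quasi-likelihood F test with Benjamini-Hochberg adjustment over 8705 genes, adjusted p = 5.24e-08) and -1.37 ± 0.098 in 2.5% FEx (adjusted p = 3.96e-07). It was the only ribosomal protein gene past a log2 fold change of 1 with an adjusted p under 0.05, a call that 3.63% and 2.93% of all genes met as lower in 10% FEx and in 2.5% FEx. No member was higher past that fold by edgeR, as 7.34% of all genes were in 10% FEx, 5.59% in 2.5% FEx and 2.42% between the FEx media, where 1.05% were lower. Between the FEx media it was lower in 10% FEx by -0.30 ± 0.099 at an adjusted p of 0.049, a call that was lost when any library of an FEx medium was left out.

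Its partner RpS19a, the form used throughout the body, had 713, 704 and 695 CPM in 10% FEx, 611, 574 and 500.4 CPM in 2.5% FEx and 763, 589.7 and 891 CPM in MB10. RpS19b thus supplied 4.72%, 4.19% and 4.82% of the counts of the pair in 10% FEx, 6.09%, 7.26% and 7.44% in 2.5% FEx and 13.7%, 13.7% and 10.8% in MB10, with no overlap between any of the media. RpS19a was lower in 2.5% FEx at -0.41 ± 0.13 (adjusted p = 0.0215) and differed by -0.087 ± 0.13 in 10% FEx (adjusted p = 0.591). How reads that fit both copies were counted is not given in the sources used here.

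In 2.5% FEx against MB10, no ribosomal protein gene was higher and 25 of 84 (29.8%) were lower at an adjusted p under 0.05 by edgeR, while 22% of all genes tested were higher and 22.2% lower. None was higher at an unadjusted p under 0.05 either, and DESeq2 called none higher. The fitted change was negative for 83 of the 84 genes, with a median of -0.32 on the log2 scale against -0.04 for all genes. Of these, 77 lay between -0.5 and 0, so that the common difference was modest. By subunit the lower calls were 11 of 47 genes of the large subunit, 14 of 34 of the small subunit and 0 of the 3 stalk genes, with medians of -0.32, -0.35 and -0.29. In all 3 libraries of 2.5% FEx, 18 of the 84 genes (21.4%) lay below every MB10 library, against 26.3% of all genes, and 0 lay above, against 25.2%. The share of lower calls was thus near that of all genes, and the lack of higher ones was not. Most members are short, however, and other short genes were also mostly lower here. The 1102 other genes with over 500 and up to 1000 exon bases had a median of -0.25 and an upper quartile of -0.05. Higher calls among genes of like length were not counted.

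The count rested on single libraries. It was 70 without MB10 replicate 2, where 25.7% of all genes were lower, and 14 without MB10 replicate 1 or without MB10 replicate 3. Without 2.5% FEx replicate 1, 2 or 3 it was 12, 14 and 9, and without 10% FEx replicate 2, which is in the fit but not in the contrast, it was 16. Lower calls over all genes, 1932 of 8705 in the main fit, also fell where the member count fell. They were 1408 of 8803 and 1779 of 8798 without MB10 replicate 1 and 3. Without 2.5% FEx replicate 1, 2 and 3 they were 1361 of 8805, 1416 of 8799 and 1388 of 8798. Without 10% FEx replicate 2 they were 1760 of 8782. The median of the members stayed below 0 throughout, from -0.44 without MB10 replicate 2 to -0.12 without MB10 replicate 3.

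After RpS19b, the largest falls among called genes were those of RpL41 in 10% FEx and RpL39 in 2.5% FEx. RpL39, whose small protein lines the exit tunnel for the nascent chain, lies on chromosome 2R, 24061853 to 24062431, and had 1987, 1979 and 1930.0 CPM in 10% FEx, 1636, 1867 and 1697 CPM in 2.5% FEx and 3013, 2612 and 2536 CPM in MB10. RpL41, on chromosome 2R, 24903416 to 24903935, codes for a tiny peptide at the subunit interface and had 2404, 2469 and 2279.5 CPM in 10% FEx, 2346, 2875 and 2604 CPM in 2.5% FEx and 4567, 3216 and 3657 CPM in MB10. Both were below MB10 in every library of both FEx media. For RpL39 the log2 fold change was -0.47 ± 0.094 in 10% FEx (adjusted p = 0.00128) and -0.65 ± 0.094 in 2.5% FEx (adjusted p = 0.000193). RpL41 changed by -0.68 ± 0.13 (adjusted p = 0.000892) in 10% FEx and -0.55 ± 0.13 (adjusted p = 0.00503) in 2.5% FEx. They have the shortest exon lengths of the ribosomal protein genes tested, 288 bases for RpL39 and 320 bases for RpL41. RpL39 overlaps the exons of RpL12 on the opposite strand.

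RpS3A, the only member on chromosome 4 (65225 to 67207), codes for a protein of the small subunit platform. Its expression was 2321, 2384 and 2211 CPM in 10% FEx, 2184, 2499.5 and 2483 CPM in 2.5% FEx and 3565, 3297 and 2925 CPM in MB10. Again no library of an FEx medium reached an MB10 library, and the change was -0.50 ± 0.10 in 10% FEx (adjusted p = 0.00125) and -0.45 ± 0.10 in 2.5% FEx (adjusted p = 0.00368). RpS29, a zinc-binding protein of the subunit head, had 1499, 1455 and 1491 CPM in 10% FEx, 1310.1, 1366 and 1408 CPM in 2.5% FEx and 1848, 1640.3 and 1806 CPM in MB10. RpS15Ab, a copy of RpS15Aa, had 169, 159.7 and 149 CPM in 10% FEx, 147, 160.4 and 151 CPM in 2.5% FEx and 205, 173 and 210.0 CPM in MB10. Both were lower in each FEx medium without overlap, by -0.25 ± 0.080 and -0.30 ± 0.080 in 10% FEx (adjusted p = 0.0187 and 0.00809) and by -0.37 ± 0.080 and -0.36 ± 0.081 in 2.5% FEx (adjusted p = 0.00283 and 0.00375). RpS19b, RpL39, RpL41, RpS3A, RpS29 and RpS15Ab are the 6 genes called lower in both FEx media (7.14%), as 17.2% of all genes tested were. With offsets fitted to the length trend described further on, the calls of RpS29 and RpS15Ab by edgeR were lost. Their changes were then -0.0015 and -0.0066 in 10% FEx (adjusted p = 0.988 and 0.925) and -0.17 and -0.12 in 2.5% FEx (adjusted p = 0.0735 and 0.0754). The comparisons share the MB10 libraries.

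The other 19 genes called lower in 2.5% FEx were not called in 10% FEx. RpS25, which in yeast and human cells is needed for translation from certain internal ribosome entry sites, had 1828, 1749.9 and 1940.1 CPM in 10% FEx, 1414, 1390.4 and 1318 CPM in 2.5% FEx and 1831, 1784 and 2443 CPM in MB10. RpS20, a protein of the small subunit head, had 728, 835 and 893 CPM in 10% FEx, 627, 630.0 and 566 CPM in 2.5% FEx and 824, 797 and 938 CPM in MB10. In each, the libraries in 2.5% FEx lay below both other media, at -0.56 ± 0.12 for RpS25 (adjusted p = 0.00262) and -0.49 ± 0.096 for RpS20 (adjusted p = 0.00167) against MB10. RpS12, which flies need for the elimination of Minute cells by their neighbours, had 624, 594 and 705 CPM in 10% FEx, 441, 409 and 328 CPM in 2.5% FEx and 486, 419 and 764 CPM in MB10. Its values in 2.5% FEx overlapped those in MB10 through replicate 2 of MB10, and its change was -0.50 ± 0.19 (adjusted p = 0.0459).

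RpL10Ab, a protein of the L1 stalk, had 1299, 1687 and 1731 CPM in 10% FEx, 1277, 1199 and 975 CPM in 2.5% FEx and 1455, 1347 and 1921 CPM in MB10, and the libraries in 2.5% FEx were the lowest. Its change there was -0.45 ± 0.15 against MB10 (adjusted p = 0.0322). RpL27A, a core protein of the large subunit, had 996, 1022 and 1090.1 CPM in 10% FEx, 813, 772 and 641 CPM in 2.5% FEx and 930.5, 804 and 1309.7 CPM in MB10, and differed by -0.45 ± 0.15 (adjusted p = 0.0321) with 1 library of 2.5% FEx inside the range of MB10. The remaining lower calls, RpS7, RpL36A, RpS19a, RpS27A, RpS24, RpS28b, RpL21, RpL19, RpS13, RpL40, RpL10, RpS15Aa, RpL9 and RpL37A, had log2 fold changes of -0.42 to -0.24.

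In 10% FEx against MB10 few ribosomal protein genes were called, with the MB10 libraries spread as described above. By edgeR, 3 of 84 (3.57%) were higher and 7 (8.33%) lower, where 25.5% of all genes were higher and 27.6% lower. The median log2 fold change was 0.09 against -0.04 for all genes, and 59 of the 84 were positive. Only RpL11 and RpL5 lay above every MB10 library (2.38%, against 27.4% of all genes), and 7 genes lay below (8.33%, against 29.8%). Without MB10 replicate 3 the higher calls were 48, where 27.7% of all genes were higher, and the median was 0.28. They were 0 without MB10 replicate 1, without MB10 replicate 2 or without 10% FEx replicate 2 or 3, and 1 without 10% FEx replicate 1. Higher calls over all genes ranged from 1963 of 8806 to 2469 of 8793 in these fits, against 2218 of 8705 in the main fit. Without MB10 replicate 2 the median of the members turned to -0.05. The direction of the group as a whole in 10% FEx against MB10 was therefore not settled by these libraries, whereas the lower calls stayed at 5 to 8 whichever library was left out.

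The 3 higher genes encode proteins of the large subunit. RpL4 reaches into the exit tunnel and had 921, 951 and 1035 CPM in 10% FEx, 791, 711 and 575 CPM in 2.5% FEx and 569.7, 484 and 925 CPM in MB10. RpL6, a surface protein, had 967, 995 and 1106 CPM in 10% FEx, 809.9, 771 and 687 CPM in 2.5% FEx and 720.3, 691 and 974 CPM in MB10. RpL11 binds the 5S ribosomal RNA together with RpL5 and had 2575, 2261 and 2310.2 CPM in 10% FEx, 1919, 1937 and 1634 CPM in 2.5% FEx and 1823, 1457 and 2213 CPM in MB10. For RpL4 and RpL6 the range in MB10 overlapped that in 10% FEx through MB10 replicate 3 alone, while for RpL11 it did not overlap. The log2 fold changes were 0.55 ± 0.20 for RpL4 (adjusted p = 0.0322), 0.36 ± 0.12 for RpL6 (adjusted p = 0.0277) and 0.38 ± 0.14 for RpL11 (adjusted p = 0.0355). RpL5 itself, the member with the highest CPM, had 8584, 8511 and 8587 CPM in 10% FEx, 6936, 7773 and 7447 CPM in 2.5% FEx and 8045, 7452 and 6862 CPM in MB10, and its change of 0.20 ± 0.10 did not pass the test (adjusted p = 0.128).

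Beyond the 6 genes lower in both FEx media, RpL38 was lower in 10% FEx. Its protein binds the surface of the large subunit and in the mouse affects the translation of Hox mRNAs. It had 1139, 1089.5 and 1013 CPM in 10% FEx, 924, 1273 and 1232 CPM in 2.5% FEx and 1968, 1327 and 1170.5 CPM in MB10. MB10 replicate 1 was far above the other MB10 libraries, and the change was -0.46 ± 0.17 in 10% FEx (adjusted p = 0.0422) and -0.38 ± 0.17 in 2.5% FEx (adjusted p = 0.0971).

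**Figure D3:**
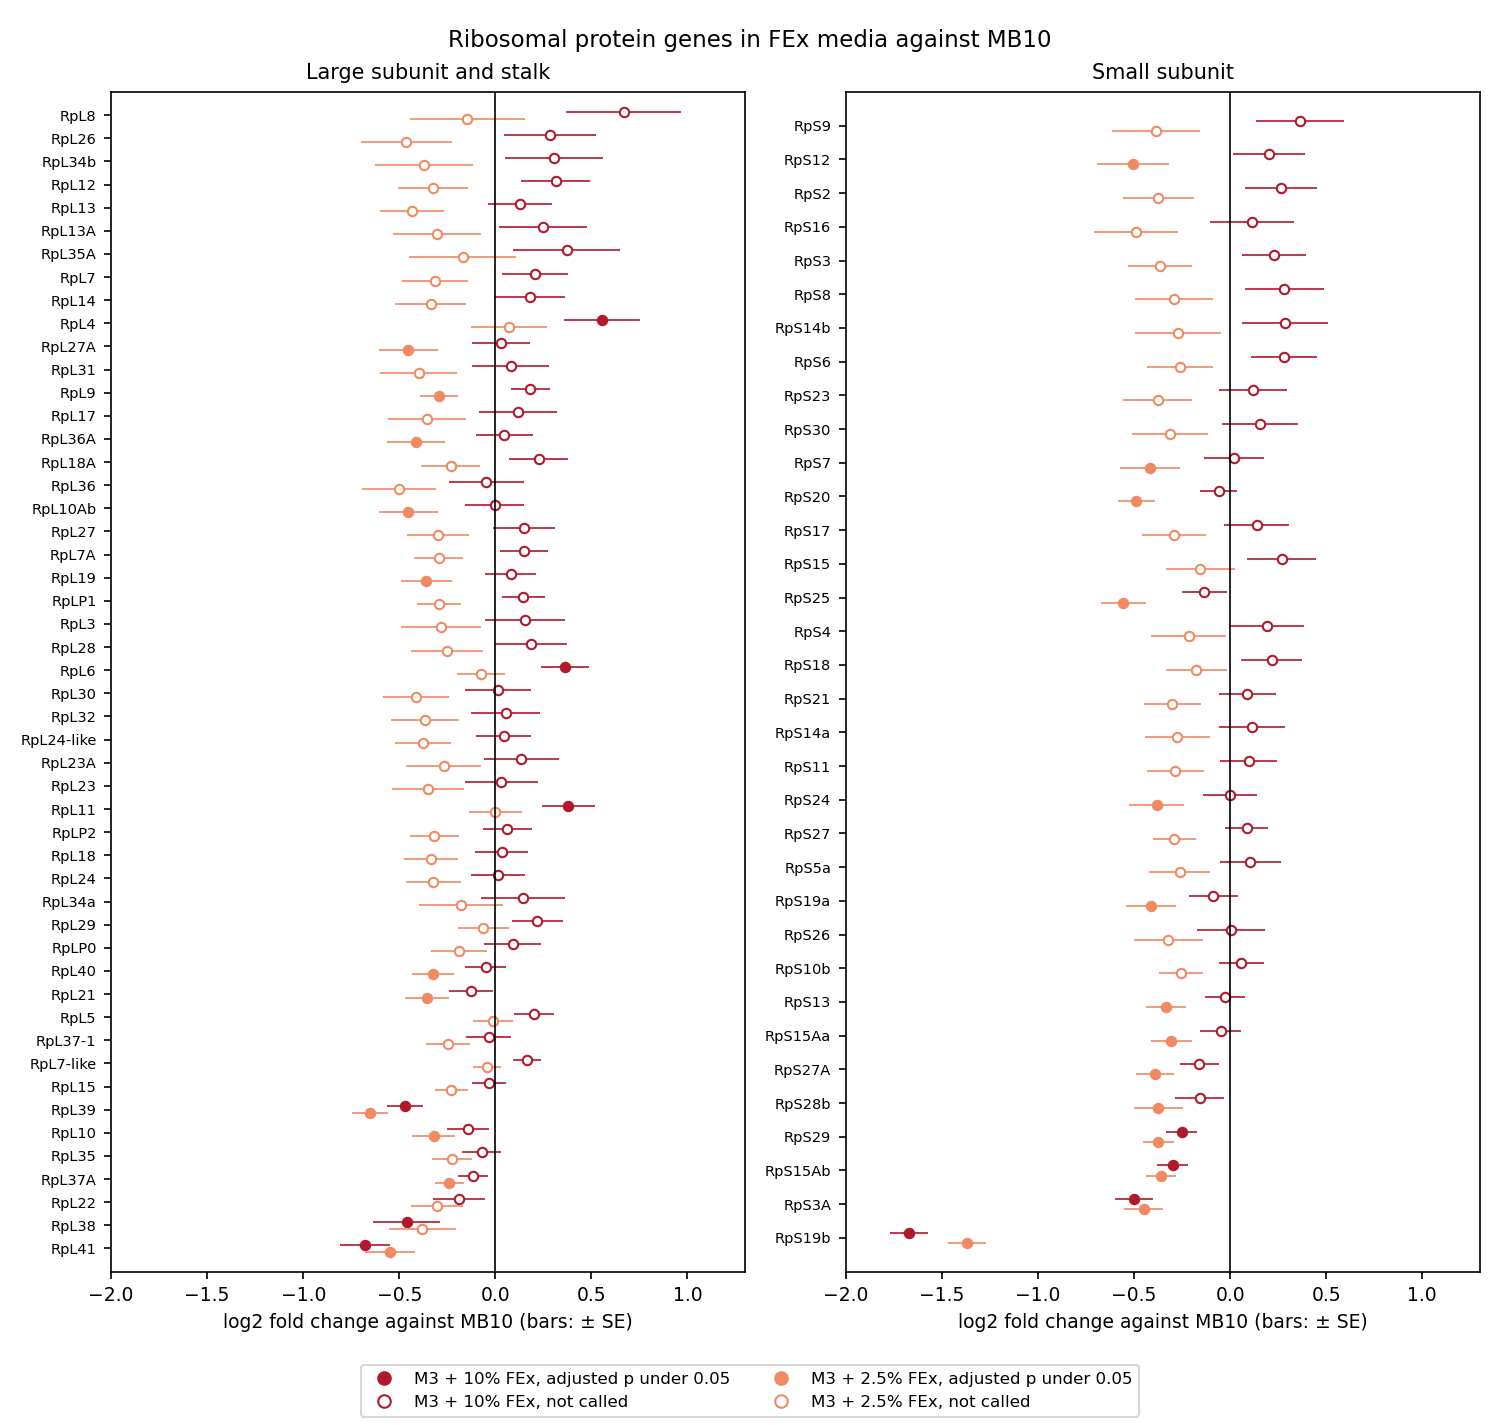
Fitted log2 fold change against MB10 (x axis, bars ± SE) of each ribosomal protein gene tested, in 10% FEx (red) and 2.5% FEx (orange), ordered by the change between the FEx media. Filled points have an adjusted p under 0.05. Orange points lie left of 0 for 83 of the 84 genes, while red points lie on both sides, and RpS19b stands alone at -1.67 and -1.37.

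Libraries overlapped least in these genes between the FEx media. In 10% FEx against 2.5% FEx, 80 of the 84 genes had a positive change, with a median of 0.42 on the log2 scale against 0.00 for all genes. By edgeR 18 (21.4%) were higher and 1 (1.19%) lower, where 10.5% of all genes were higher and 11.3% lower. Every library in 10% FEx lay above every library in 2.5% FEx for 75 of the 84 genes (89.3%), against 23.3% of all genes tested, and below for RpS19b alone, against 23.8%. The ranges overlapped for RpL3, RpL22, RpL35A, RpL38, RpL41, RpS3A, RpS4 and RpS15Ab. The members share their libraries, so these counts describe 3 libraries against 3 and not 84 separate observations. Within MB10 alone, the median deviation of the same genes from the MB10 mean was -0.32 in replicate 2 and 0.38 in replicate 3. The higher calls were 9 of the large subunit, 8 of the small subunit and RpLP1. Gene by gene, this change went with the deviation of MB10 replicate 3 from MB10 replicates 1 and 2. The Pearson coefficient was 0.83 (Spearman 0.81) over 84 genes, as a description. Genes that rose more between the FEx media thus tended to be those that were higher in 1 MB10 library. Whether these differences share a source was not tested.

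The number of calls depended on the libraries in the fit. In a fit of the FEx media alone 70 of 84 genes were higher, where 16.7% of all genes were. The count was 65 without MB10 replicate 3 (15% of all genes) and 60 without MB10 replicate 2 (13.3%). It was 2 without 2.5% FEx replicate 3, 3 without 2.5% FEx replicate 2 or 10% FEx replicate 1 or 3, and 6 without 10% FEx replicate 2. Higher calls over all genes fell as well where a library of an FEx medium was left out, from 913 of 8705 in the main fit. They were 561 of 8798 without 2.5% FEx replicate 3 and 561 of 8799 without 2.5% FEx replicate 2. Without 10% FEx replicate 1, 2 and 3 they were 612 of 8774, 655 of 8782 and 640 of 8806. The median of the members moved only between 0.33, without 2.5% FEx replicate 3, and 0.46.

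The largest rises between the FEx media were in both subunits. RpS9, which helps shape the mRNA entry channel, had 867, 697 and 722 CPM in 10% FEx, 529.8, 486 and 344 CPM in 2.5% FEx and 537, 399.8 and 842 CPM in MB10. RpL26, near the mouth of the exit tunnel, had 411, 356 and 390.4 CPM in 10% FEx, 271, 236 and 182 CPM in 2.5% FEx and 273, 205 and 471 CPM in MB10. Both were higher in each 10% FEx library than in any 2.5% FEx library, with MB10 spread over both, and their changes were 0.75 ± 0.23 for RpS9 (adjusted p = 0.0367) and 0.75 ± 0.24 for RpL26 (adjusted p = 0.0436). By DESeq2 both missed the threshold at the same size (adjusted p = 0.0527 and 0.0744), while the other 16 higher genes passed it, and by edgeR both calls were lost without any one of the 10% FEx libraries or without 2.5% FEx replicate 2 or 3. RpS12, given above, rose by 0.71 ± 0.19 (adjusted p = 0.0191).

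RpL12, at the base of the stalk where elongation factors bind, had 1807, 1559.9 and 1641 CPM in 10% FEx, 1160.1, 1124 and 933 CPM in 2.5% FEx and 1246, 969.7 and 1814 CPM in MB10. RpS2 had 1035, 936 and 905 CPM in 10% FEx, 686, 647 and 514 CPM in 2.5% FEx and 736, 578 and 1079.6 CPM in MB10, and RpS3 had 3165, 2678 and 2743 CPM in 10% FEx, 2069, 1981 and 1649 CPM in 2.5% FEx and 2244, 1914 and 3175 CPM in MB10; their proteins line the path of the mRNA into the small subunit. In these genes too MB10 replicate 3 reached or passed the level of 10% FEx, and MB10 replicate 2 was near that of 2.5% FEx. Between the FEx media they rose by 0.64 ± 0.18, 0.64 ± 0.19 and 0.59 ± 0.17 (adjusted p = 0.027, 0.0292 and 0.025).

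RpL13 had 637, 617 and 699 CPM in 10% FEx, 494, 457 and 369 CPM in 2.5% FEx and 518, 478 and 790.0 CPM in MB10 and changed by 0.57 ± 0.17 between the FEx media (adjusted p = 0.0307). RpS6, the ribosomal protein phosphorylated by S6 kinase downstream of TOR, had 982, 901 and 979 CPM in 10% FEx, 717, 690.3 and 559 CPM in 2.5% FEx and 731, 582 and 1043 CPM in MB10 and changed by 0.54 ± 0.17 (adjusted p = 0.0419). In fly larvae, mutants of RpS6 and of RpS21 overgrow their blood-forming organs. RpS21 had 299, 267 and 266 CPM in 10% FEx, 208, 231 and 195 CPM in 2.5% FEx and 259.5, 192 and 329 CPM in MB10, and its change of 0.39 ± 0.15 between the FEx media did not pass the test (adjusted p = 0.0851). The remaining higher calls, RpL27A, RpL9, RpL36A, RpL7A, RpLP1, RpL19, RpL6, RpS20, RpS25 and RpS27, had changes of 0.38 to 0.48.

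RpL9, which touches the factor-binding site of the large subunit, was chosen for display after its values were seen, since its call between the FEx media, like that of RpS20, held under all 18 alternatives. It had 1878, 1756 and 1786 CPM in 10% FEx, 1322, 1361 and 1218 CPM in 2.5% FEx and 1551, 1407 and 1822 CPM in MB10, with 2.5% FEx below both other media and a change of 0.47 ± 0.10 in 10% FEx against it (adjusted p = 0.00606). RpL8, chosen after its values were seen as the gene with the largest spread in MB10, had 1065, 841 and 873 CPM in 10% FEx, 637, 562 and 383 CPM in 2.5% FEx and 499.9, 323 and 926 CPM in MB10. Its fitted change of 0.81 ± 0.30 between the FEx media, above that of RpS9 and RpL26, did not pass the test (adjusted p = 0.076).

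**Figure D4:**
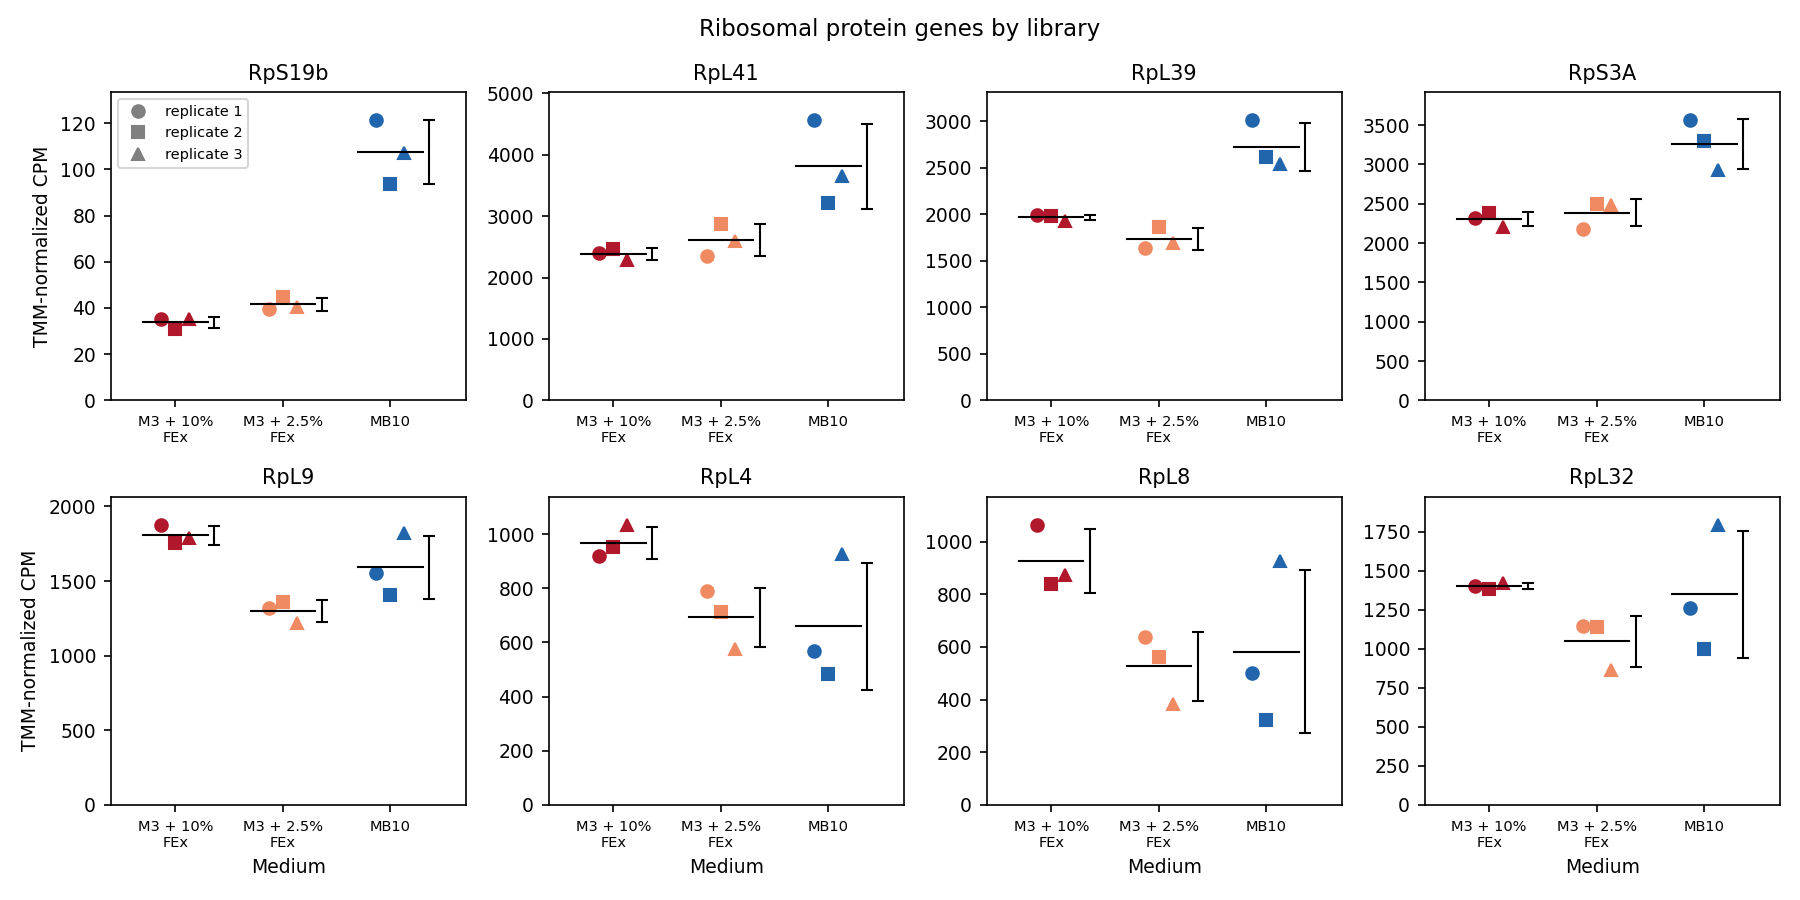
TMM-normalized CPM of 8 ribosomal protein genes in each library (y axis, from 0) by medium, with the replicate number as the symbol, the mean as a line and the SD over 3 libraries as the bar to its right. In the upper row every FEx library lies below every MB10 library, as for RpS19b at 30.8 to 44.9 CPM against 93.9 to 121 CPM. In the lower row RpL9, RpL4, RpL8 and RpL32 are higher in 10% FEx than in 2.5% FEx, with MB10 replicate 3 the highest MB10 library.

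The stalk genes, whose acidic proteins recruit the translation factors, followed the common pattern. RpLP0 had 1329.5, 1178 and 1150.0 CPM in 10% FEx, 1024, 1099 and 888 CPM in 2.5% FEx and 1147, 880.2 and 1408 CPM in MB10. RpLP1 had 1782, 1588 and 1669 CPM in 10% FEx, 1266, 1230.3 and 1222 CPM in 2.5% FEx and 1505, 1263 and 1785 CPM in MB10, and RpLP2 had 1388, 1172 and 1183 CPM in 10% FEx, 937, 1030.1 and 911 CPM in 2.5% FEx and 1258, 951 and 1377 CPM in MB10. In all 3 genes 10% FEx lay above 2.5% FEx without overlap, and MB10 overlapped both. Only the change of RpLP1 between the FEx media, 0.44 ± 0.11, passed the test (adjusted p = 0.0173). For RpLP0 and RpLP2 it was 0.28 ± 0.15 and 0.38 ± 0.13 (adjusted p = 0.201 and 0.0532).

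RpL32, the usual reference gene of fly RT-PCR (rp49), had 1402, 1385 and 1423 CPM in 10% FEx, 1145, 1141 and 862 CPM in 2.5% FEx and 1261, 998 and 1797 CPM in MB10. The 2.5% FEx libraries were below those of 10% FEx, and MB10 replicate 3 was the highest of all. None of its changes passed the test, at 0.054 ± 0.18 in 10% FEx against MB10, -0.37 ± 0.18 in 2.5% FEx against MB10 and 0.42 ± 0.18 between the FEx media (adjusted p = 0.819, 0.117 and 0.117).

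RpL40 and RpS27A are made as fusions to ubiquitin, which is cut off during maturation. RpL40 had 1074, 1003 and 1015 CPM in 10% FEx, 885, 900.4 and 770.5 CPM in 2.5% FEx and 1045, 918 and 1239 CPM in MB10. RpS27A had 2759.9, 2623 and 2655 CPM in 10% FEx, 2116, 2442 and 2295 CPM in 2.5% FEx and 3262, 2661 and 3055 CPM in MB10, and shares exon sequence with the gene Ip259 on the same strand. In both, 2.5% FEx lay below the other media without overlap, at -0.33 ± 0.11 and -0.39 ± 0.10 against MB10 (adjusted p = 0.0295 and 0.00798). RpL10, a late-joining protein that completes the catalytic centre, had 6624, 6540.3 and 6241 CPM in 10% FEx, 5316, 6181 and 5633 CPM in 2.5% FEx and 8009.9, 6862 and 6530.0 CPM in MB10. RpL21 had 4825, 4442 and 4243 CPM in 10% FEx, 3501, 4099 and 3908 CPM in 2.5% FEx and 5535, 4398 and 4803 CPM in MB10. These strongly expressed genes were lower in 2.5% FEx than in MB10 without overlap, at -0.32 ± 0.11 and -0.36 ± 0.11 (adjusted p = 0.0345 and 0.0238).

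Several members come in pairs, which offers a comparison within each library. RpS14a had 722, 691 and 722 CPM in 10% FEx, 583, 593 and 455 CPM in 2.5% FEx and 624, 486 and 864 CPM in MB10, and RpS14b, a tandem duplicate that codes for the same protein, had 360.3, 340.4 and 351 CPM in 10% FEx, 269, 255 and 190.3 CPM in 2.5% FEx and 255, 189 and 419 CPM in MB10. RpS14b supplied 33.3%, 33.0% and 32.7% of the pair's counts in 10% FEx, 31.6%, 30.1% and 29.5% in 2.5% FEx and 29.0%, 28.0% and 32.7% in MB10. The share was highest in 10% FEx, and MB10, with replicate 3 just below that level, overlapped 2.5% FEx. Reads from copies this alike can be split between them in more than 1 way, so that the shares are uncertain.

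RpL34a had 282, 282 and 286 CPM in 10% FEx, 243, 248 and 189 CPM in 2.5% FEx and 234, 164 and 372 CPM in MB10, and RpL34b had 496, 468 and 489 CPM in 10% FEx, 345, 323 and 242 CPM in 2.5% FEx and 341, 235 and 600.2 CPM in MB10. Here the share of RpL34a was 36.2 to 37.6% in 10% FEx, 41.3 to 43.9% in 2.5% FEx and 38.2 to 41.1% in MB10, with no overlap between the media. RpS15Aa had 1930.5, 1824 and 1740.4 CPM in 10% FEx, 1467, 1665 and 1468 CPM in 2.5% FEx and 2056, 1606 and 2023 CPM in MB10. The share of RpS15Ab in that pair was 7.91 to 8.05% in 10% FEx, 8.79 to 9.30% in 2.5% FEx and 9.07 to 9.74% in MB10, lowest in 10% FEx without overlap. No test of these shares was run.

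RpL7-like and RpL24-like match the rule by name, although their yeast counterparts act in ribosome assembly and leave before the ribosome is finished. RpL7-like had 186, 199 and 197 CPM in 10% FEx, 171, 172 and 162 CPM in 2.5% FEx and 168, 159.7 and 192 CPM in MB10, and RpL7, a protein of the mature large subunit, had 1468, 1601 and 1756 CPM in 10% FEx, 1247, 1141 and 980.1 CPM in 2.5% FEx and 1232, 1087 and 1863 CPM in MB10. RpL24-like had 152, 129.8 and 134 CPM in 10% FEx, 109, 112 and 90.4 CPM in 2.5% FEx and 129.8, 105 and 169 CPM in MB10, and RpL24 had 819, 701 and 696 CPM in 10% FEx, 577, 633 and 542 CPM in 2.5% FEx and 770.4, 550.4 and 871 CPM in MB10. The 10% FEx libraries were above those of 2.5% FEx for all 4 genes, and none of the changes passed the test. RpL7-like differed by 0.17 ± 0.073 in 10% FEx and -0.041 ± 0.073 in 2.5% FEx against MB10 (adjusted p = 0.0726 and 0.677). Its exons overlap those of CG34164 on the same strand, and its counts may be split between them.

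The expressed partners of the silent copies had every 10% FEx library above every 2.5% FEx library, apart from RpL22. RpS5a had 1105, 1237 and 1258 CPM in 10% FEx, 998, 986 and 808 CPM in 2.5% FEx and 1056, 853 and 1438 CPM in MB10, RpS10b had 889.5, 830.1 and 811 CPM in 10% FEx, 679, 721 and 635 CPM in 2.5% FEx and 815, 663 and 952 CPM in MB10, and RpS28b had 3559.5, 3477 and 3491 CPM in 10% FEx, 2885, 3269 and 2904 CPM in 2.5% FEx and 3907, 3177 and 4656 CPM in MB10. RpL37-1 had 2149.8, 2028 and 2154 CPM in 10% FEx, 1871, 1869 and 1724 CPM in 2.5% FEx and 2122, 1809 and 2555 CPM in MB10. RpL22, which carries a histone H1-like extension in flies, had 455, 621 and 678 CPM in 10% FEx, 565, 548 and 507 CPM in 2.5% FEx and 638, 594 and 769 CPM in MB10. Of these, RpS28b was lower in 2.5% FEx against MB10, at -0.37 ± 0.13 (adjusted p = 0.0327), and the others passed no test. RpL22 shares exon sequence with lncRNA:CR42491 on the same strand. In all, 30 of the 84 genes overlap exons of another gene, 24 of them on the opposite strand, and 28 carry snoRNA genes within their span.

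Fold changes rose with the length of the transcript in these data, and the ribosomal protein genes are short. Their exon length had a median of 909.5 bases, against 2027 bases for all genes tested, and 49 of 84 were at most 1000 bases long. Over the 8579 other genes with a known exon length, the log2 fold change rose by 0.147 per doubling of length in 10% FEx against MB10, by 0.108 in 2.5% FEx against MB10 and by 0.0396 between the FEx media. Without a filter on low counts the slopes were 0.0806, 0.0698 and 0.0109. Against MB10 the shortest genes did not follow: the 378 other genes of up to 500 bases had medians of -0.15 in 10% FEx and -0.08 in 2.5% FEx, against -0.31 and -0.25 in the class over 500 and up to 1000 bases. Spearman coefficients over the 8579 genes were 0.41, 0.41 and 0.14 in the same order, as a description across genes. Replicates of 1 medium also differed in this slope, by 0.055 in MB10 replicate 2 and -0.031 in MB10 replicate 3 relative to the mean of MB10.

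Set against other genes of their own length, the ribosomal protein genes took a different place in the FEx media. For lengths over 500 and up to 1000 bases, which hold 46 members, the median change in 10% FEx against MB10 was 0.07 in the members and -0.31 in 1102 other genes. In 2.5% FEx against MB10 it was -0.34 in the members and -0.25 in the others. Between the FEx media it was 0.42 in the members and -0.07 in the others. For lengths over 1000 and up to 2000 bases, with 33 members, the medians were 0.13 and -0.17, -0.31 and -0.15, and 0.41 and -0.02 in the same order, members first. Relative to the median of other genes in the same length class, 77 of 84 members lay above it in 10% FEx against MB10, by a median of 0.34, and 71 of 84 lay below it in 2.5% FEx against MB10, by a median of -0.11. Between the FEx media 80 of 84 lay above it, by a median of 0.46.

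With offsets fitted to the length trend of each library, 45 members were higher in 10% FEx than in MB10, where 23.8% of all genes were. In the same fit 5 were lower in 2.5% FEx than in MB10, where 16% of all genes were. The trend that remained after the offsets is not given here. Between the FEx media 61 were higher, where 13% of all genes were. The class up to 500 bases holds 3 members, RpL39, RpL41 and RpL29, the first and second of which were described above as lower in both FEx media, while RpL29 had 1429, 1280.3 and 1322 CPM in 10% FEx, 1106, 1165 and 1042 CPM in 2.5% FEx and 1157, 901 and 1404 CPM in MB10 and passed no test. Among the members themselves length ordered the changes weakly, with Spearman coefficients of 0.19, 0.29 and 0.02 over 84 genes in 10% FEx against MB10, 2.5% FEx against MB10 and between the FEx media.

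**Figure D5:**
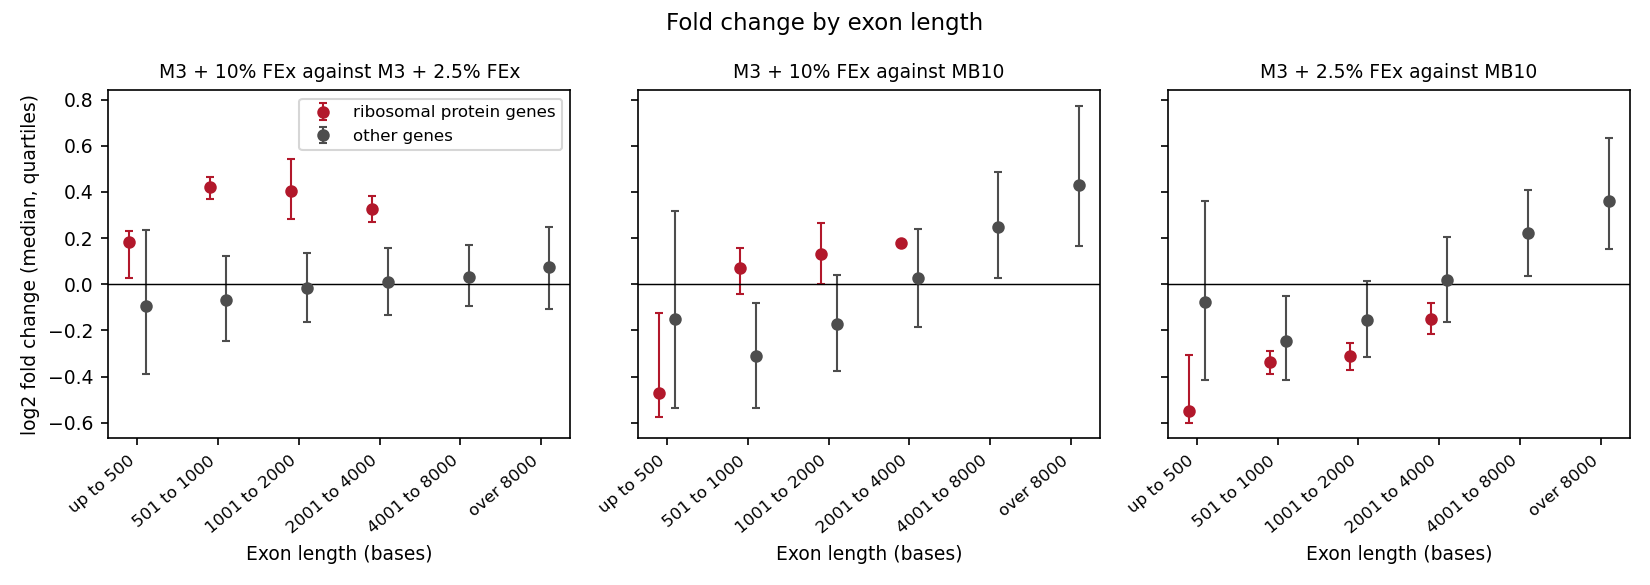
Median log2 fold change (y axis, bars from the lower to the upper quartile) by class of exon length in bases (x axis), for ribosomal protein genes (red) and other genes tested (grey), in the 3 comparisons. In 10% FEx against MB10 the grey medians climb from -0.31 in the class over 500 and up to 1000 bases to 0.43 over 8000 bases, with the shortest class off this trend at -0.15. The red medians lie above the grey ones of their class in that comparison and between the FEx media in the classes over 500 bases, but below them in 2.5% FEx against MB10.

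Among other genes of the translation machinery, the translation factor and assembly lists had calls in both directions and the mitochondrial ribosomal protein genes in 1. Of 36 translation factor genes tested, 8 were higher and 2 lower in 10% FEx against MB10, 4 and 4 in 2.5% FEx against MB10, and 4 and 2 between the FEx media, with a median of 0.13 in the last. That is 22.2% and 5.56%, 11.1% and 11.1%, and 11.1% and 5.56% of the list, where 25.5% and 27.6%, 22% and 22.2%, and 10.5% and 11.3% of all genes were higher and lower. Of 31 genes of ribosome assembly and RNA polymerase I, 2 were higher and 7 lower, 3 and 7, and 1 and 1 in the same order (6.45% and 22.6%, 9.68% and 22.6%, and 3.23% and 3.23%). The 73 mitochondrial ribosomal protein genes had 35, 22 and 8 lower calls (47.9%, 30.1% and 11%) and no higher call in any of the 3 comparisons, with medians of -0.29, -0.25 and -0.05. The 1102 other genes over 500 and up to 1000 bases, a class that can include genes of this list, had medians of -0.31, -0.25 and -0.07. The exon lengths of this list are not given here, and length was not taken into account for it. Among 14 proteasome core genes 4, 1 and 1 were lower (28.6%, 7.14% and 7.14%) and none higher. No difference between the lists was tested.

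Of the small subunit proteins that the rule leaves out, sta averaged 1367 ± 63.7 CPM in 10% FEx, 873 ± 127 CPM in 2.5% FEx and 1109 ± 348 CPM in MB10 (SD, n = 3 each), and rose by 0.65 ± 0.18 between the FEx media (adjusted p = 0.025 by edgeR). Rack1 averaged 893 ± 54.1, 610.1 ± 99.8 and 635 ± 247 CPM in the same order, with a change of 0.55 ± 0.22 between the FEx media (adjusted p = 0.0927).

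Of 17 TOR and insulin pathway genes tested, 8 were higher and 3 lower in 10% FEx against MB10, 4 and 3 in 2.5% FEx against MB10, and 2 and 1 between the FEx media. These are 47.1% and 17.6%, 23.5% and 17.6%, and 11.8% and 5.88% of the list, to be read against the shares of all genes given above. Thor, the 4E-BP that holds back cap-dependent initiation and is induced when insulin and TOR signalling falls, averaged 36.9 ± 2.17 CPM in 10% FEx, 25.8 ± 1.67 CPM in 2.5% FEx and 12.7 ± 0.791 CPM in MB10 (SD, n = 3 each). Its log2 fold change was 1.54 ± 0.085 in 10% FEx (adjusted p = 2.71e-08) and 1.02 ± 0.086 in 2.5% FEx (adjusted p = 1.84e-06) against MB10, and 0.52 ± 0.080 between the FEx media (adjusted p = 0.000816), all by edgeR. Myc, the activator of ribosome production, averaged 372 ± 8.87, 407 ± 23.8 and 307 ± 56.9 CPM in the same order and was higher in 2.5% FEx by 0.41 ± 0.11 (adjusted p = 0.011), while its change of 0.28 ± 0.11 in 10% FEx missed the threshold (adjusted p = 0.0522). Of the 84 ribosomal protein genes, 45 were called in none of the 3 comparisons and 39 (46.4%) in at least 1, against 63.5% of all genes tested.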

How the data were processed

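S2R+ cells in 3 media were sequenced with 3 libraries each. Per the study's methods and processing notes, the authors trimmed paired-end reads from a stranded mRNA kit with Trimmomatic 0.36, mapped them with HISAT2 2.1.0 to the fly genome (release dmel_r6.30) and counted them per gene with featureCounts 1.6.4. The deposited values are raw counts, without normalization. How strand and multi-mapping reads were handled at counting is not given in the sources used here, and genes that overlap or resemble another may share counts.

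Counts were normalized by TMM and tested with edgeR 4.0.16 (glmQLFit and glmQLFTest, two-sided tests), with all 9 libraries in 1 model and 8705 genes kept by filterByExpr, with Benjamini-Hochberg adjustment in each comparison. A gene is called at an adjusted p under 0.05, and SEs were taken as the size of the log2 change over the root of its F statistic. Log2 CPM used a prior count of 2. Exon lengths are unions of exons in Ensembl's BDGP6.54, a later annotation of the same assembly, in which 85 of 17562 IDs had no match. The length offsets came from a lowess on log length (span 0.5), fitted in each library to each gene's log2 CPM minus its mean over the libraries. DESeq2 1.42.0, other scalings, filters, a replicate block and leaving out each library were the alternatives. The pipeline was tested on simulated data. Analyses ran in R 4.3.3 and Python 3.11.15.

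Genes shown per library are the stalk genes, up to 8 called genes with the largest rise and up to 8 with the largest fall in each comparison, RpL32, RpS6, RpS21, RpL40, RpS27A, paralog sets, and the 5 highest and 5 lowest per kilobase, and RpL8, RpL9, RpL5 and RpL29 were added after their values were seen. The members and the other gene lists (translation factors, ribosome assembly, TOR and insulin, proteasome core, hemocyte and adult fly markers) were chosen with earlier results of these data known.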

Additional observations from a re-analysis of the deposited data

How the results depend on the processing

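No call or median reversed under an alternative other than those left-out libraries named above, and 11 of 54 called changes of single genes held under all 18 alternatives: RpS19b, RpL39, RpL41 and RpS3A in both FEx media, RpS25 in 2.5% FEx, and RpL9 and RpS20 between the FEx media. In 2.5% FEx against MB10 the 25 lower calls became 11 with library totals alone, 48 with no filter on low counts, 12 in a fit of these media only and 5 with length offsets. Over all genes, 1932 lower calls of 8705 became 1447 of 8705, 2034 of 14044, 1620 of 8505 and 1390 of 8663 in that order. In 10% FEx against MB10 the 3 higher calls became 6 with DESeq2 and 45 with length offsets, where the 7 lower calls became 4 and the median 0.36. Over all genes, 2218 higher calls became 2323 with DESeq2 and 2060 with length offsets, where 2405 lower calls became 1902. Between the FEx media the 18 higher calls became 42 with DESeq2, 59 with no filter, 61 with length offsets and 70 in a fit of these media only, and the 1 lower call became 0 with TMM factors from other genes and with at least 10 counts in every library. Over all genes, 913 higher calls of 8705 became 988 of 8705, 960 of 14044, 1128 of 8663 and 1436 of 8596 in that order. The 983 lower calls over all genes became 962 with TMM factors from other genes and 885 with at least 10 counts. The length slope without a filter was 0.0698, 0.0806 and 0.0109 in 2.5% FEx and 10% FEx against MB10 and between the FEx media. The share of counts without the paralogs was 10.3% in 10% FEx and 8.45% in 2.5% FEx. With library totals alone, calls over all genes between the FEx media were 654 higher and 1338 lower, against 913 and 983 with TMM. The causes of these shifts were not tested.

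When each library was dropped, the higher and lower calls were 0 to 1 and 9 to 70 in 2.5% FEx against MB10, 0 to 48 and 5 to 8 in 10% FEx against MB10, and 2 to 65 and 0 to 1 between the FEx media. The medians ran from -0.44 to -0.12, -0.05 to 0.28 and 0.33 to 0.46, the length slopes from 0.0869 to 0.131, 0.125 to 0.169 and 0.0311 to 0.0452, and the shares of counts from 11.6 to 11.8% in 10% FEx, 9.36 to 10.0% in 2.5% FEx and 10.5 to 12.3% in MB10. Over all genes, lower calls in 2.5% FEx against MB10 ran from 1361 to 2258. Higher calls ran from 1963 to 2469 in 10% FEx against MB10 and from 561 to 1324 between the FEx media.

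Replicate numbers recur in each medium but were not taken to pair the libraries: after removal of medium means, same-numbered libraries correlated over all genes at a mean of -0.226 for 2.5% FEx and MB10, 0.0141 for 10% FEx and MB10, and 0.0282 for the FEx media. Over the members alone the same coefficients were -0.93 to -0.44, 0.22 to 0.38 and -0.22 to -0.21. With the number as a replicate block, 11 members were lower in 2.5% FEx and 2 higher in 10% FEx against MB10, and between the FEx media 9 were higher and 0 lower. Over all 8705 genes the same counts were 1637, 2076, 688 and 738.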
